A study of Mus musculus with 6 samples.

Results

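The genes of major histocompatibility complex (MHC) class I antigen presentation were examined in cultured mouse aortic smooth muscle cells after knockdown of Sirt6. The set was fixed by name as 10 genes: the heavy chain genes H2-M1, H2-M9, H2-K1, H2-D1, H2-T22 and H2-T23, the light chain gene B2m, the peptide transporter genes Tap1 and Tap2, and Tapbp. Of these, 9 were present among the 7384 genes of the deposited tables, and H2-T23 was not analysed here. The genes were chosen by fold change in this contrast, since H2-M1 and H2-M9 had stood out in earlier results for their large differences between siSirt6 and Control, and the tables themselves are a selection of genes that differ in that contrast. The differences of all 9 genes between siSirt6 and Control are therefore a description and carry no test. The cultures were vascular smooth muscle cells from mouse aorta, in 2 groups of 3 libraries: siSirt6, treated for 48 h with a small interfering RNA against Sirt6, which encodes a nuclear sirtuin that removes acyl groups from histones, and Control, kept for the same time. What the Control cultures received, the mouse strain, age and genotype, and whether replicates came from separate animals or cultures are unstated in the sources at hand. If they did not, the spread between replicates may be technical.

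MHC class I molecules display short peptides from inside the cell to CD8+ T cells. Proteasomes cut proteins into peptides, the transporter made of TAP1 and TAP2 carries them into the endoplasmic reticulum, and tapasin, encoded by Tapbp, holds the transporter to an empty heavy chain bound to beta-2 microglobulin until a peptide fits. H2-K1 and H2-D1 encode the classical heavy chains, which nearly all nucleated cells express and which interferons raise. H2-T22 encodes a non-classical chain seen by some gamma delta T cells. H2-M1 and H2-M9 belong to a non-classical family of the mouse known for its expression in sensory neurons of the vomeronasal organ, together with pheromone receptors of the V2R class.

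The promoters of H2-M1 and H2-M9 are shown first, because these genes stood apart from the others in the data, beside those of the classical chains H2-K1 and H2-D1 and of B2m. Each window runs from 250 bases before to 50 bases after a RefSeq transcription start (GRCm38.p6), 5′ to 3′ on the gene's strand. Capitals mark matches on either strand to 5 motifs: the core of the interferon-stimulated response element (GAAA, any 2 bases, GAAA), the kappaB site (GGGGA followed directly by TTCCC), the CCAAT box CCAAT, the cyclic AMP response core TGACG and the TATA box TATAAA.
H2-M1 (chr17:36672148-36672447, minus strand): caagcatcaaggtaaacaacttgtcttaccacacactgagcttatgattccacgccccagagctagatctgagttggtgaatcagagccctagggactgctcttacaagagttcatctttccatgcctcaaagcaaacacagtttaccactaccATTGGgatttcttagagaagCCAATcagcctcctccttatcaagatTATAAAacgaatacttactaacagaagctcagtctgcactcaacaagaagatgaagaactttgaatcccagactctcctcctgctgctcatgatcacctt
H2-M9 (chr17:36642595-36642894, minus strand): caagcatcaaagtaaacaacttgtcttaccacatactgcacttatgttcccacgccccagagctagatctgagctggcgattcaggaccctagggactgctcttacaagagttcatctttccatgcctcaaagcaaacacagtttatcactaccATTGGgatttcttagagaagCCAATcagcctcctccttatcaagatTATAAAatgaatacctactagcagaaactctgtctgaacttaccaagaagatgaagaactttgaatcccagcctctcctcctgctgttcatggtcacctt
H2-K1 (chr17:34000284-34000583, minus strand): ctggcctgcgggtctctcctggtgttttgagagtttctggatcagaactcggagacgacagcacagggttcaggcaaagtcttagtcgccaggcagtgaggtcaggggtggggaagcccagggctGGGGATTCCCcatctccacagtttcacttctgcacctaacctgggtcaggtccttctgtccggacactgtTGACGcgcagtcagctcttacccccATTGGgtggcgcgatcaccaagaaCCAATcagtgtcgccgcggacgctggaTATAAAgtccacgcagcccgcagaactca
H2-D1 (chr17:35262844-35263143, plus strand): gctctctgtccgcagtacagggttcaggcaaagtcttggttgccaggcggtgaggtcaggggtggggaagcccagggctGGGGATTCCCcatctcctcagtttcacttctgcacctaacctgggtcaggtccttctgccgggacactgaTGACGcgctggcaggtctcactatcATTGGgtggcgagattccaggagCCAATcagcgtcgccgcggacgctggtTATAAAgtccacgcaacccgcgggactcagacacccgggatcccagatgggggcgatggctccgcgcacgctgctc
B2m (chr2:122147437-122147736, plus strand): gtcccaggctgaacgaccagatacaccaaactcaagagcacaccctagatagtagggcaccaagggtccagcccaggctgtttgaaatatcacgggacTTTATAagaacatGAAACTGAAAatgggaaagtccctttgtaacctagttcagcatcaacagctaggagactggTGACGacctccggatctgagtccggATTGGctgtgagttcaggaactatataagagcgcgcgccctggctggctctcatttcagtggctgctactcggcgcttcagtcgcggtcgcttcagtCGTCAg

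The windows of H2-M1 and H2-M9 were 92.3% identical, at 277 of 300 aligned bases. Both held the same 3 matches at the same places: CCAAT boxes 96 and 76 bases before the start, in opposite orientation, and a TATA box 50 bases before it. H2-M9 has a further annotated start, from which the same matches lie 77, 57 and 31 bases before the start, so the equal distances hold for the window printed here. The run of 25 bases from the first CCAAT box to the second was the same in both and, among 32851 promoter windows, occurred in no gene other than these. The next most similar window of a class I heavy chain gene was that of H2-M11, at 66.4% identity with H2-M1 and 69.2% with H2-M9. H2-K1 and H2-D1 were 88.9% identical to each other over 253 aligned bases, and H2-K1 was 53.8% identical to H2-M1.

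Both classical promoters held the kappaB site, which occurred in 0.107% of all windows, and a TGACG core, which occurred in 20.8%. The windows of H2-M1 and H2-M9 held neither. CCAAT, found in 37.4% of all windows, matched in all 8 listed genes that had a window, and TATAAA, found in 13.6%, matched in H2-M1, H2-M9, H2-K1, H2-D1 and B2m. The TATAAA match of H2-D1 lay 26 bases before the start, and that of H2-K1, in the window printed, 21 bases after it. In B2m it lay 152 bases before the start, on the opposite strand. The response element core, found in 3.44% of windows, matched in H2-T22 and B2m. A further motif, TTCNNNGAA, to which STAT proteins bind, was found in 8.30% of windows and in none of these. A match is not evidence of binding, and a missing match says only that these letters were not in this window. No window was at hand for Tap2.

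**Figure D1:**
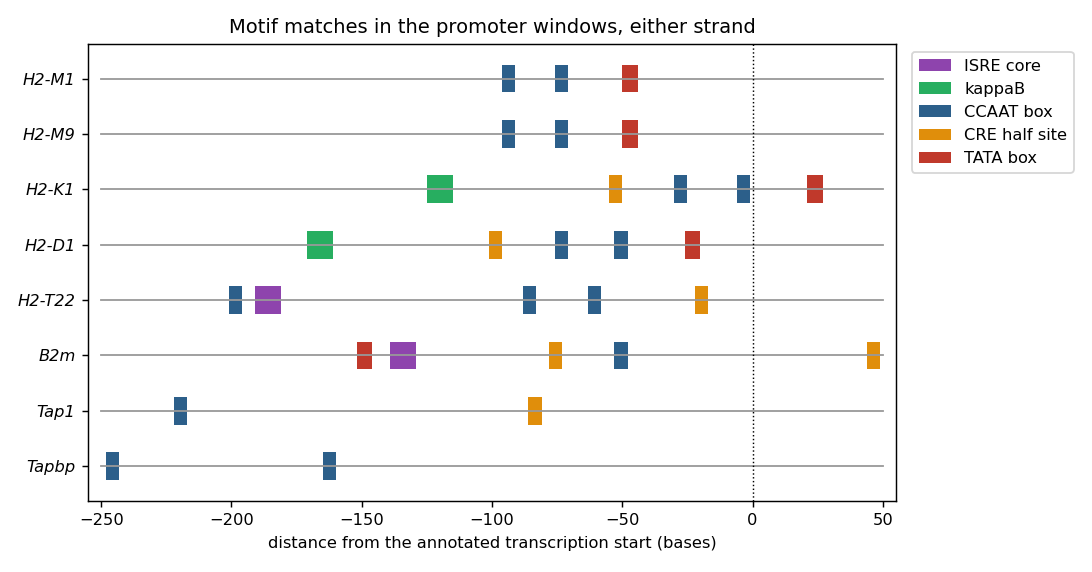
Positions of motif matches on either strand in the promoter windows of 8 listed genes, as distance in bases from the annotated transcription start (dotted line); where a gene has 2 windows, 1 is drawn. In the windows drawn, H2-M1 and H2-M9 carry the same 3 matches at the same distances, and kappaB sites are drawn only for H2-K1 and H2-D1.

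The coding sequences bear on whether reads of these genes can be told apart. The first 60 bases of the second coding exon, which encodes the start of the alpha-1 domain that lines the peptide groove of classical molecules, are given from GENCODE vM21 (GRCm38), with bases that differ from H2-M9 in capitals.
H2-M1 (chr17:36671834-36671893, minus strand): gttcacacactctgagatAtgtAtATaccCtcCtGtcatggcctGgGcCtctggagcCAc
H2-M9 (chr17:36642281-36642340, minus strand): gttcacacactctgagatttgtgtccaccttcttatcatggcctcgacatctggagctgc
H2-K1 (chr17:33999944-34000003, minus strand): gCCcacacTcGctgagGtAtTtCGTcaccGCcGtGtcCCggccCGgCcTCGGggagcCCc
H2-D1 (chr17:35263379-35263438, plus strand): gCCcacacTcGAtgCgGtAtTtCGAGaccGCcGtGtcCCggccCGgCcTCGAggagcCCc

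In this stretch H2-M1 differed from H2-M9 at 12 of 60 bases, H2-K1 at 25 and H2-D1 at 28. Over the whole coding sequence H2-M1 and H2-M9 were 85.6% identical, with 79.0% in the second coding exon and 94.2% in the fourth, which encodes the alpha-3 domain. Their identity with H2-K1 was 62.5% for H2-M1 and 63.0% for H2-M9. Of all windows of 50 bases in the annotated H2-M1 transcript, 1.29% also occurred in another gene, as did 0.903% of those of H2-M9, and each shared them with the other of the pair alone. The share was 34.5% for H2-T22, with 31.2% shared with H2-T10, 12.8% for H2-D1 and 9.63% for H2-K1. The values of H2-T22 and, in part, of H2-D1 and H2-K1 can therefore hold reads of related genes. The sources do not say how reads with several matches were counted.

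The listed genes took between 14614192 and 15526399 reads in the siSirt6 libraries and between 14458847 and 14563794 in the Control libraries. Values are the authors' normalised read counts, that is reads divided by a factor for each library. Sirt6 stood at 44.5, 59.8 and 63.5 in siSirt6 and at 251.7, 257.0 and 270.4 in Control, so the target was lower in every siSirt6 library. Of 15 smooth muscle markers, 12 were in the tables, led by the actin gene Acta2 with means of 96836 in siSirt6 and 58253 in Control. Of the 12, 10 were higher and 2 lower, beside 50.5% and 49.3% over all genes tested. The lower ones were Smtn (log2 -0.30) and Mylk (-0.32). Once the dependence of each library on transcript length and GC was taken out, Mylk was no longer called (-0.10). Smtn stayed lower (-0.32) and Myl9 was called lower (-0.062) on that scale. Des, Myocd and Synpo2 were not analysed here. In bulk RNA, fewer cells of a type and less RNA per cell cannot be told apart.

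H2-M1 (chromosome 17, 36670008 to 36672219, minus strand) had normalised read counts of 385.6, 352.6 and 336.1 in siSirt6, against 47.8, 52.6 and 57.9 in Control. The lowest siSirt6 library was well above the highest Control library. The ratio of the means, 358.1 ± 25.2 over 52.8 ± 5.07 (SD, n = 3 each), was 6.79, and the log2 fold change on the log2(value + 1) scale was 2.74 with a standard error of 0.126. This was rank 11 among the 7179 genes tested, ordered from the most positive fold change. The values rested on 323 to 390 reads in siSirt6 and 49 to 60 in Control.

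H2-M9 (chromosome 17, 36639285 to 36642666, minus strand) lies 27341 bases from H2-M1. It had 1037, 983.5 and 933.5 in siSirt6, against 224.4, 215.2 and 243.4 in Control. These groups did not overlap either. Means were 984.7 ± 51.9 in siSirt6 and 227.7 ± 14.4 in Control (SD, n = 3 each), a ratio of 4.33 and a log2 fold change of 2.11 (SE 0.071), at rank 45. The ratio of H2-M9 to H2-M1, each per kilobase of exon, was 2.02 ± 0.040 in siSirt6 and 3.17 ± 0.235 in Control (SD, n = 3 each), with no overlap between the groups, so the neighbours did not differ by the same factor. The size of this ratio depended on the length used. Per kilobase of the transcript with the longest coding sequence, it was 2.72 in siSirt6 and 4.28 in Control.

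**Figure D2:**
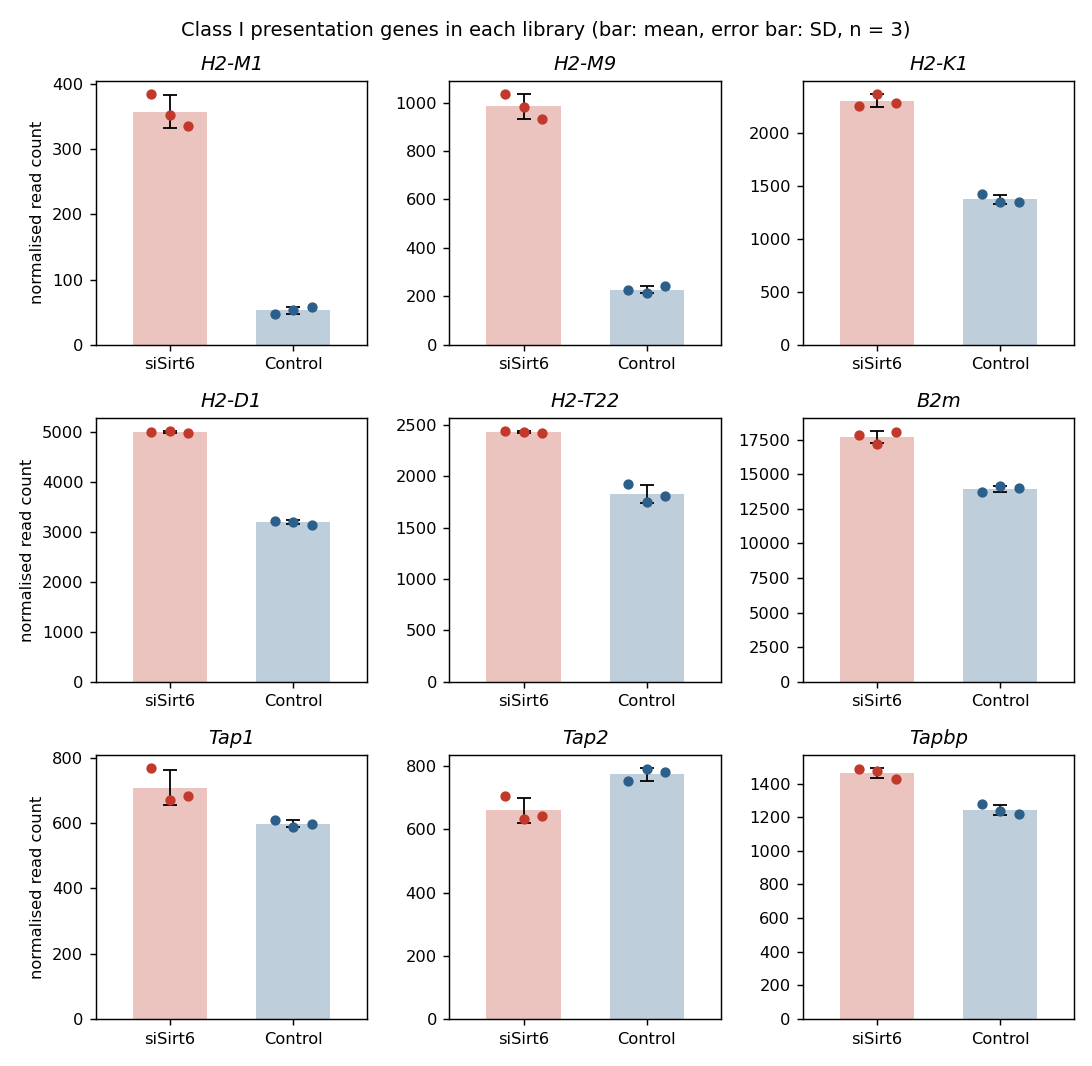
Normalised read counts of the 9 listed class I presentation genes in each library, with siSirt6 at left and Control at right of each panel; points are libraries, bars are means and error bars are SD (n = 3). The groups do not overlap for any of the 9 genes, as for 96.8% of all genes tested. Tap2 is the gene whose siSirt6 libraries lie below its Control libraries.

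The classical heavy chains were higher in siSirt6 by a smaller factor. H2-K1 (chromosome 17, 33996017 to 34000347, minus strand) had 2260.4, 2373 and 2281 in siSirt6, against 1424, 1346 and 1352 in Control. That is a ratio of 1.68 and a log2 fold change of 0.75 (SE 0.038). H2-D1 (chromosome 17, 35262730 to 35267499, plus strand), the most abundant of the listed heavy chains, had 5009, 5029 and 4979 in siSirt6, against 3227, 3207 and 3146 in Control. Its 3 siSirt6 libraries lay closely together, and its ratio was 1.57 (log2 0.65, SE 0.027).

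H2-T22 (chromosome 17, 36037128 to 36042747, minus strand) had 2440.4, 2432 and 2418 in siSirt6, against 1920.3, 1752 and 1807 in Control. The ratio was 1.33 (log2 0.41, SE 0.037), the smallest of the 5 heavy chains. H2-Q4, a non-classical heavy chain gene outside the named set, had 196.8, 152.6 and 162.3 in siSirt6, against 77.1, 79.8 and 70.5 in Control. Its groups were apart as well (ratio 2.25, log2 1.15, SE 0.140). It came between the H2-M pair and the classical chains in fold change.

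B2m (chromosome 2, 122147686 to 122153083, plus strand), which encodes the light chain that most class I heavy chains need to reach the surface, had 17835, 17204 and 18052 in siSirt6, against 13696, 14131 and 14009 in Control. It was the most abundant gene of the set, higher in siSirt6 by a ratio of 1.27 (log2 0.34, SE 0.020). With the dependence of each library on transcript length and GC content removed, its log2 fold change was 0.0091 (SE 0.020) and no longer past the threshold. The gene Patl2 is annotated across B2m on the opposite strand. The kit was stranded per the labels, but the sources do not say whether strand was used in counting.

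The transporter genes differed in direction. Tap1 (chromosome 17, 34187553 to 34197225, plus strand) had 769.3, 671.1 and 683.7 in siSirt6, against 608.9, 588.1 and 598.8 in Control, a ratio of 1.18 (log2 0.24, SE 0.061). Tap2 (chromosome 17, 34203527 to 34216321, plus strand), which encodes the partner chain, had 706.0, 634.0 and 643.1 in siSirt6, against 752.3, 791.6 and 780.3 in Control. Tap2 was thus lower in siSirt6 while Tap1 was higher (Tap2 ratio 0.853, log2 -0.23, SE 0.058). Per kilobase of exon, the ratio of Tap1 to Tap2 was 0.739 ± 0.012 in siSirt6 and 0.534 ± 0.023 in Control (SD, n = 3 each). Per kilobase of the transcript with the longest coding sequence, a scale added after the data were seen, it was 1.25 ± 0.020 in siSirt6 and 0.901 ± 0.039 in Control. Which of the pair had the higher level in siSirt6 thus depended on the length used, while the ratio was higher in siSirt6 on both scales. The call of Tap1 ended when libraries were scaled to equal sums of listed values (log2 0.12) and with DESeq2 on 5 libraries (log2 0.18); that of Tap2 held throughout.

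Tapbp (chromosome 17, 33915899 to 33929292, plus strand) had 1486, 1476 and 1429.9 in siSirt6, against 1276, 1237 and 1221 in Control. The 2 groups were apart, with a ratio of 1.18 (log2 0.23, SE 0.042), and the log2 fold change was 0.14 without the length and GC trend and 0.12 with listed totals. Zbtb22 overlaps the first part of Tapbp on the same strand, and Psmb9 overlaps the start of Tap1 on the opposite strand. Neither overlapping gene was analysed here.

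Levels can be compared between genes only per length, and were taken per kilobase of all annotated exons. On that scale B2m led in both groups, at 20578 in siSirt6 and 16215 in Control, followed by H2-D1 at 1941 in siSirt6 and 1238 in Control. In siSirt6 H2-K1 was next at 784.5, then H2-T22 at 711.8 and H2-M9 at 682.4. In Control H2-T22 stood at 534.9, H2-K1 at 467.6 and H2-M9 at 157.8. H2-M1 was the lowest of the set in Control, at 49.9, below Tap1 at 109.3, while in siSirt6 it stood at 338.8, above Tap2 at 174.8 and Tap1 at 129.3. Tapbp was at 403.6 in siSirt6 and 343.0 in Control. Per kilobase of the transcript with the longest coding sequence, H2-K1 at 1424 and H2-T22 at 1380 in siSirt6 were well above H2-M9 at 920.3, and Tap1 at 239.8 was above Tap2 at 192.1. The other places in siSirt6 and all places in Control were the same on both scales.

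Per kilobase, H2-M1 and H2-M9 together made up 22.9% ± 1.02 of the summed level of the 5 listed heavy chains in siSirt6 and 8.49% ± 0.614 in Control (SD, n = 3 each). The share of H2-D1 was 43.5% ± 0.508 in siSirt6 and 50.6% ± 0.820 in Control. H2-T22 took 16.0% ± 0.175 in siSirt6 and 21.8% ± 0.629 in Control, and H2-K1 took 17.6% ± 0.488 in siSirt6 and 19.1% ± 0.258 in Control. Among these 5 genes the share of the H2-M pair was thus higher in siSirt6. This follows from the larger fold changes for which the pair was chosen and is a description only. H2-Q4 and heavy chains that are not listed are left out of the sum. Per kilobase of the same single transcripts the share of the pair was 19.5% ± 0.901 in siSirt6 and 7.17% ± 0.517 in Control. The summed heavy chain level relative to B2m, both per kilobase of exon, was 0.217 ± 0.008 in siSirt6 and 0.151 ± 0.005 in Control. With the lengths of the single transcripts it was 0.313 in siSirt6 and 0.226 in Control.

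**Figure D3:**
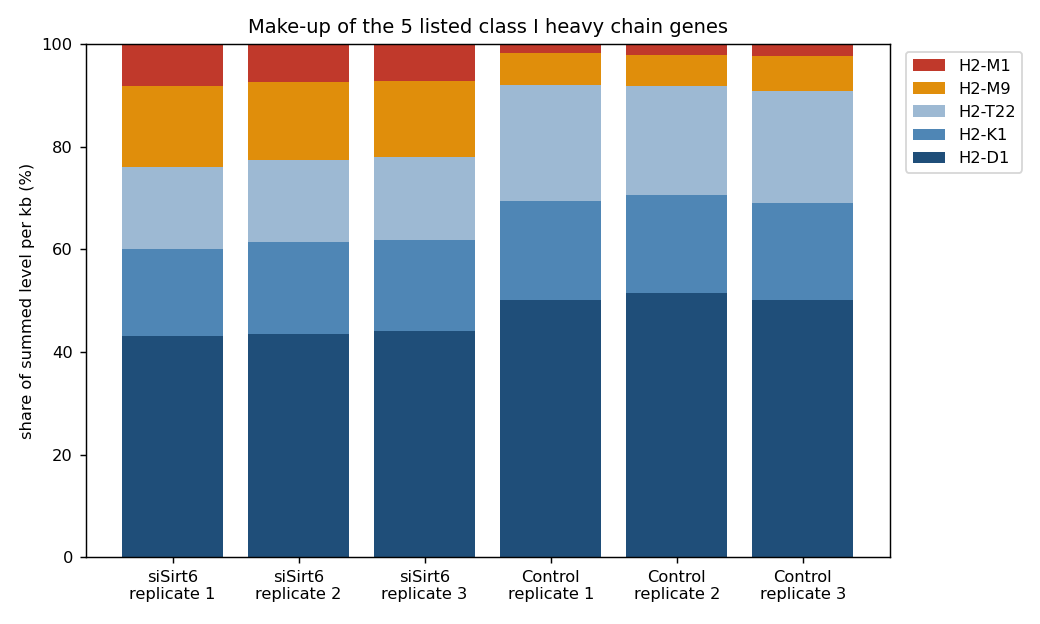
Share of each of the 5 listed class I heavy chain genes in their summed level per kilobase of exon, by library. H2-M1 and H2-M9 together make up 22.9% on average in the siSirt6 libraries and 8.49% in the Control libraries.

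All 9 listed genes passed the filter on low values (at least 10 in at least 3 libraries). With limma, adjusted over all genes tested at a threshold of 0.05, 8 were called higher in siSirt6 and 1 lower. Of all 7179 genes tested 99.8% were called, 50.5% higher and 49.3% lower, and 96.8% had groups that did not overlap, so nothing is read from these calls. After the trend on length and GC was taken out, 7 were called higher and 1 lower, where 39.1% of all genes were called higher and 37.5% lower. The median log2 fold change was 0.41 over the 9 genes and 0.085 over all genes tested. The members spread widely around that median, from -0.23 for Tap2 to 2.74 for H2-M1.

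**Figure D4:**
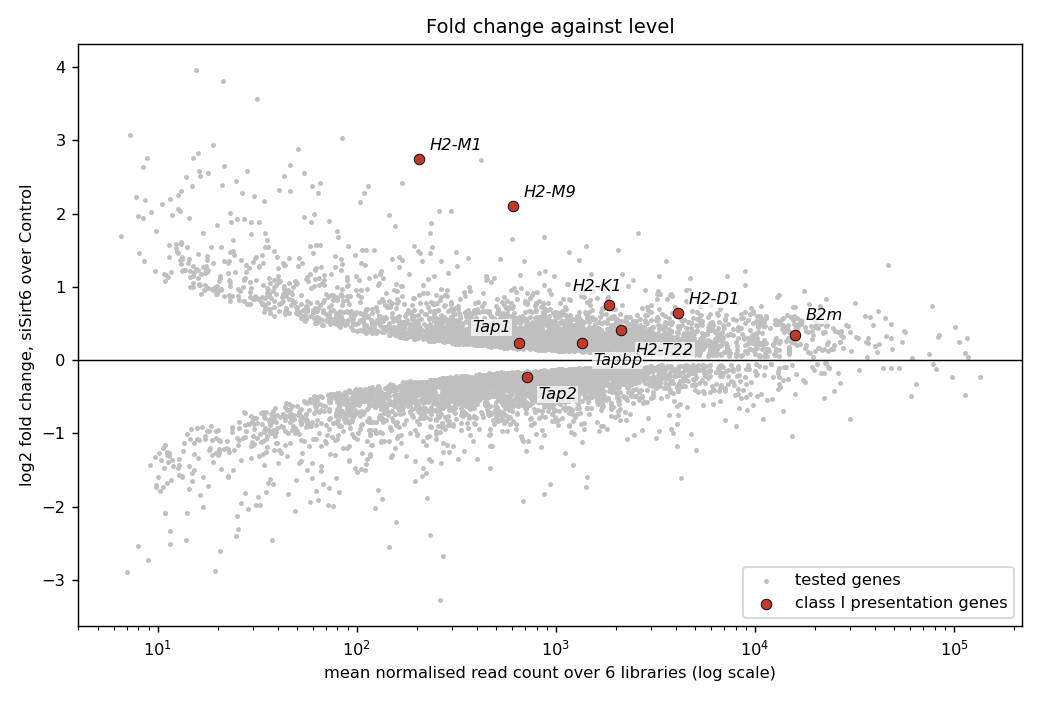
Log2 fold change (siSirt6 over Control) against the mean normalised read count over 6 libraries (log scale) for all tested genes (grey) and the 9 listed class I presentation genes (red). H2-M1 and H2-M9 lie at the upper edge, at 2.74 and 2.11, and few tested genes lie near 0.

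The spread between replicates was set against that of counting alone. The SD of H2-M1 was 1.32 times the Poisson value in siSirt6 and 0.708 times in Control, and that of H2-M9 was 1.64 times in siSirt6 and 0.967 times in Control. B2m, with many more reads, stood at 3.28 times in siSirt6, the highest of the set, and 1.93 times in Control, where H2-T22 was higher at 2.04 times. For the H2-M pair the replicate error was thus of the order of counting error.

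The genes with profiles most like that of H2-M1 were taken by the distance between log2 values centred on the gene mean over the 6 libraries. They were Vgf, a precursor of secreted neuropeptides, at a distance of 0.112, Il1rl1, the receptor for interleukin-33, at 0.451, the chemokine gene Cxcl5 at 0.477, Prl3a1 of the prolactin family at 0.484 and the lincRNA Gm11351 at 0.545. For H2-M9 they were Nrep at 0.251, the keratin gene Krt14 at 0.319, the prolactin gene Prl at 0.333, Elobl at 0.337 and Gm35940 at 0.380. Krt14, at 7.81, 8.76 and 8.69 in Control, and Gm11351, at 9.76, 14.6 and 11.6 in Control, passed the filter only through their siSirt6 libraries. The distance between H2-M1 and H2-M9 was 0.790, larger than any of these, since they differed in fold change. With 2 groups of 3 libraries such a distance mostly compares fold changes.

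Within 500 kb of the H2-M pair, 81 genes are annotated, 31 of them protein-coding, and 6 were in the tables. Of the 12 annotated genes with H2-M names there, H2-M1 and H2-M9 were the 2 in the tables. The other 4 listed genes of the interval lie 276.1 kb or more from H2-M1. Rpp21, a subunit of ribonuclease P, averaged 478.3 in siSirt6 and 350.8 in Control (log2 0.45, SE 0.073), and Zfp57, a zinc finger protein that maintains imprints, 592.8 in siSirt6 and 436.2 in Control (log2 0.44, SE 0.066). Ppp1r11, an inhibitor of protein phosphatase 1, averaged 1683 in siSirt6 and 1466 in Control (log2 0.20, SE 0.041). Polr1h, a subunit of RNA polymerase I, averaged 396.0 in siSirt6 and 333.1 in Control (log2 0.25, SE 0.082). All 4 were past the threshold in the upward direction, as were 50.5% of all genes tested, by a smaller factor than the H2-M pair. With the length and GC trend removed Zfp57 kept its call, and the other 3 lost it at log2 0.041 for Rpp21, -0.038 for Ppp1r11 and -0.17 for Polr1h. Listed totals ended the calls of Ppp1r11 (0.080) and Polr1h (0.13), which also lost its call without Control replicate 3 (0.18) and with DESeq2 (0.23).

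Further genes of the route were read from 7 lists of gene names, with the 6 most abundant members of each list named. Together 64 were in the tables, and all passed the filter and the threshold, 41 higher and 23 lower, beside the 50.5% and 49.3% over all genes tested, and the median log2 fold change was 0.19. The higher ones include Vmn1r43, which passed the filter only through its siSirt6 libraries. In the list of other class I heavy chains and class I-like genes, 4 of 41 names were in the tables, 2 higher (H2-Q4 and Procr) and 2 lower, with a median log2 fold change of 0.15. Procr, the endothelial protein C receptor, averaged 539.1 ± 34.2 in siSirt6 and 412.6 ± 13.4 in Control (SD, n = 3 each). Cd1d1, which presents lipids to natural killer T cells, had 37.6, 51.5 and 57.2 in siSirt6, against 99.5, 71.1 and 70.5 in Control, and lost its call with DESeq2 (log2 -0.56). Fcgrt, the neonatal Fc receptor, stood at 3284 in siSirt6 and 3456 in Control (log2 -0.074, SE 0.030), and lost its call without Control replicate 2 or without siSirt6 replicate 3 (log2 -0.067 and -0.052). Without the length and GC trend it was called lower by a larger amount (log2 -0.34, SE 0.029), and Procr was at 0.17.

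Of 15 names for peptide loading and folding in the endoplasmic reticulum, 11 were in the tables. All 11 were called higher, beside 50.5% of all genes tested, with a median log2 fold change of 0.27. Calreticulin Calr, which holds class I chains for loading, averaged 35690.3 ± 1242 in siSirt6 and 28741 ± 444.9 in Control (SD, n = 3 each). The loading complex disulfide isomerase Pdia3 was higher by a ratio of 1.13, the chaperone Canx by 1.09, the glucosidase subunit Prkcsh by 1.24, Hspa5 by 1.22 and P4hb by 1.11. After removal of the length and GC trend 8 were called higher and 2 lower, beside 39.1% and 37.5% of all genes. P4hb lost its call there at log2 0.0083. With libraries scaled to listed totals Canx lost its call at log2 0.0010, while without the length and GC trend it was at 0.23. Calr was at 0.21 and Pdia3 at 0.11 on that scale.

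Among proteasome subunits, activators and cytosolic peptidases, 13 of 18 names were in the tables, with a median log2 fold change of 0.24. Of these, 11 were higher and 2 lower, beside 50.5% and 49.3% of all genes tested. The constitutive catalytic subunits were all higher, with Psmb6 at 2918 ± 56.0 in siSirt6 and 2115 ± 44.2 in Control, Psmb5 at a ratio of 1.29 and Psmb7 at 1.17. The assembly factor Pomp was higher by 1.14 and the activator Psme3 by 1.13, and the peptidase Npepps was lower, at 0.849 of Control. The immunoproteasome subunits, named here after their values were seen, were also higher: Psmb8 averaged 170.3 in siSirt6 and 120.1 in Control, and Psmb10 717.5 in siSirt6 and 481.4 in Control. With the length and GC trend removed, 8 of the 13 were called higher and 1, Psmb5, lower at log2 -0.095. Over all genes the shares were 39.1% and 37.5%. Psme3 at 0.073 and Npepps at -0.064 lost their calls there, and Psme3 also with listed totals (0.052). Psmb6 was at 0.22 and Psmb10 at 0.26 without the trend.

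The list of interferon signalling genes and of factors that bind class I promoters was divided, with a median log2 fold change of -0.021. Of 36 names 18 were in the tables, 9 higher and 9 lower, beside 50.5% and 49.3% of all genes tested. Stat2, a subunit of the interferon-activated factor ISGF3, averaged 1669 ± 24.8 in siSirt6 and 1445 ± 22.3 in Control. The interferon gamma receptor chain Ifngr2 was higher by a ratio of 1.16 and the NF-kappaB subunit Rela by 1.14, while the kinase Jak1 was lower at 0.748 of Control and Nfkb1 at 0.765. Without the length and GC trend Rela was at log2 0.058 and Nfkb1 at -0.084, both no longer called. Stat3 was at a ratio of 1.06 (log2 0.080), turned to log2 -0.038 with listed totals, and lost its call without siSirt6 replicate 1 (0.065), with TMM (0.054) and with edgeR or DESeq2 (0.065 each). Without the length and GC trend Stat3 was called higher at log2 0.29, and Jak1 was at -0.24. Named after their values were seen, Irf7, an interferon-induced activator, averaged 762.1 in siSirt6 and 454.7 in Control, and Rfx5, a DNA-binding factor of the X box of MHC promoters, 89.1 in siSirt6 and 139.6 in Control. The class I transactivator Nlrc5 and Irf1 were not analysed here.

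Of 22 names for quality control, degradation and trafficking, 10 were in the tables, with a median log2 fold change of -0.28. Of these, 1 was higher and 9 lower, beside 50.5% and 49.3% of all genes tested. Ehd3, a protein of endosomal recycling, averaged 1461 ± 31.9 in siSirt6 and 3093 ± 49.7 in Control. The small GTPase Arf6, which takes part in recycling of class I molecules, was at 0.82 of Control. The components of degradation from the endoplasmic reticulum Derl1, Sel1l and Ube2j1 were at 0.887, 0.864 and 0.912 of Control, and Ube2j2 was higher by 1.15. Removal of the length and GC trend left 1 higher and 7 lower, beside 39.1% and 37.5% of all genes. Sel1l was not called there at log2 0.0062, and Arf6 was at -0.61. Ube2j2 lost its call with listed totals (0.087).

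**Figure D5:**
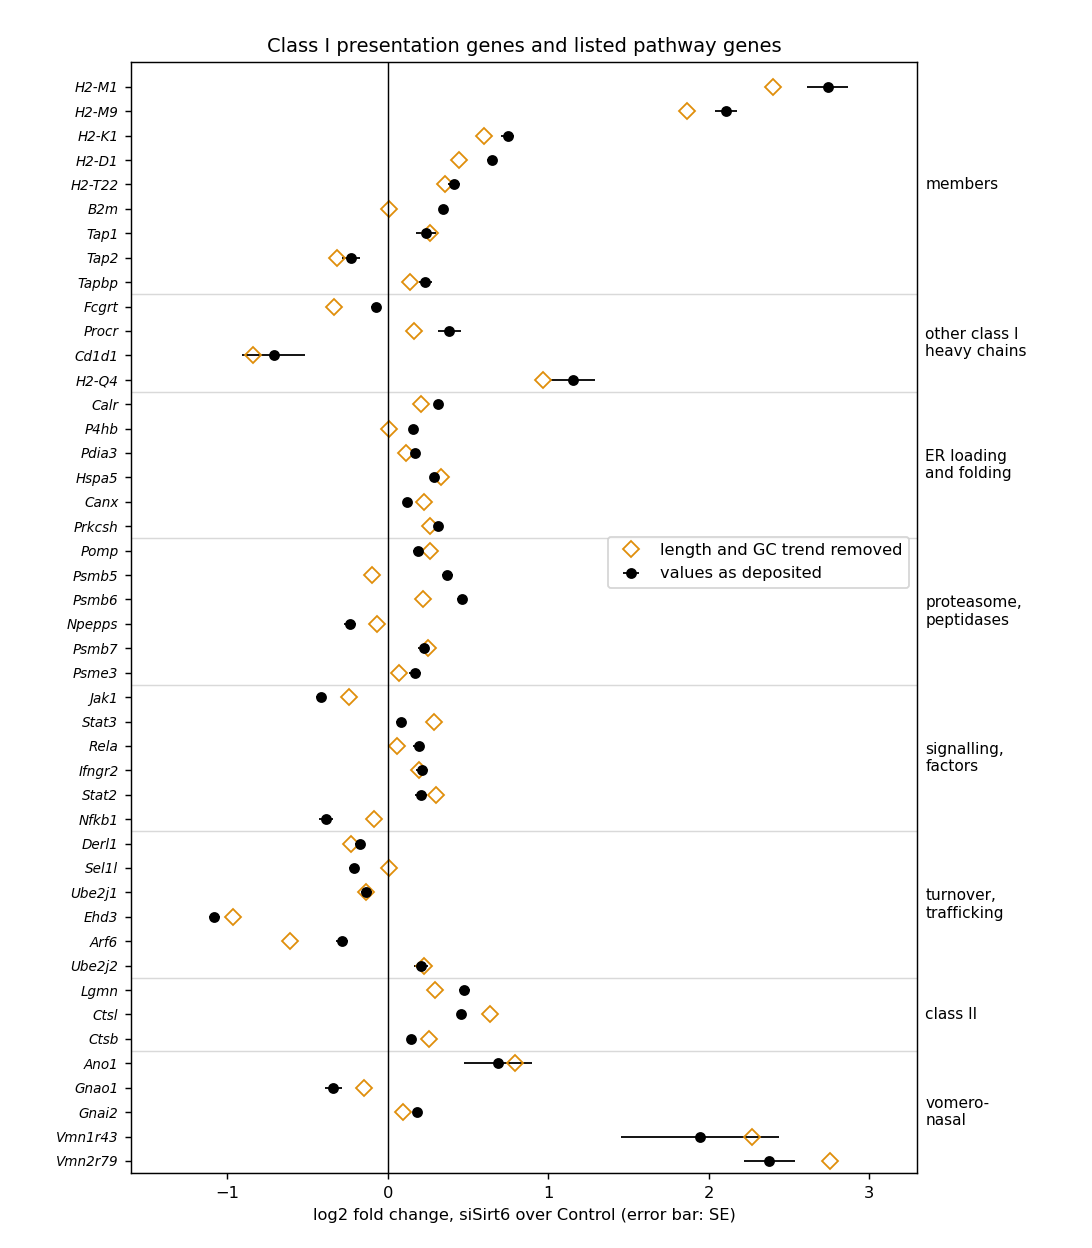
Log2 fold changes (siSirt6 over Control) for the 9 listed class I presentation genes and for the named genes of 7 pathway lists; filled circles are values as deposited, with standard errors, and open diamonds are values with the length and GC trend removed. H2-M1 and H2-M9 lie at 2.74 and 2.11, near Vmn2r79 at 2.38, and B2m moves to 0.0091 with the trend removed.

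Of 17 names of MHC class II presentation, the lysosomal proteases Lgmn, Ctsl and Ctsb were in the tables, with a median log2 fold change of 0.46. All were higher, beside 50.5% of all genes tested. Ctsl averaged 23134 ± 240.5 in siSirt6 and 16853 ± 336.7 in Control (SD, n = 3 each), Lgmn was at a ratio of 1.39 and Ctsb at 1.10, and Ctsb lost its call with listed totals (log2 0.024) and was at 0.26 without the length and GC trend. The class II chains and the invariant chain Cd74 were not analysed here.

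The vomeronasal list was included because H2-M1 and H2-M9 are known from that organ. Of its genes 5 were in the tables, with a median log2 fold change of 0.69. Of these, 4 were higher and 1 lower, beside 50.5% and 49.3% of all genes tested. The V2R receptor Vmn2r79 had 214.6, 175.2 and 184.2 in siSirt6, against 37.1, 38.9 and 31.9 in Control, a ratio of 5.32 (log2 2.38, SE 0.160). The V1R receptor Vmn1r43 was near the filter, at 11.9, 17.5 and 12.5 in siSirt6, against 1.95, 3.89 and 2.90 in Control. It passed the filter only through its siSirt6 libraries, so its direction follows from the filter and is not read as a result. The count of higher genes and the median of this list include it. The G protein Gnao1, which V2R neurons use and which is also expressed in other tissues, moved the other way, at 716.6 ± 37.8 in siSirt6 and 906.3 ± 14.5 in Control. Gnai2, a broadly expressed G protein, was at a ratio of 1.13 and the chloride channel Ano1 at 1.62. Without the length and GC trend Gnao1 was at log2 -0.15 and Gnai2 at 0.095. The defining markers Omp and Trpc2 were not analysed here.

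Markers of cells rich in MHC molecules were read beside these results. Of 20 markers of macrophages and dendritic cells, C1qb, Cd68 and Lyz2 were in the tables, all called higher, beside 50.5% of all genes tested. Their summed value was 1978 to 2018 in siSirt6 and 1777 to 1822 in Control. Most of it was Lyz2, with means of 1616 in siSirt6 and 1498 in Control. The libraries of the 2 groups overlapped for Cd68. Without the length and GC trend Cd68 (log2 -0.0059) and C1qb (-0.10) were not past the threshold and Lyz2 was called lower (-0.21). Of 16 lymphocyte markers, Lck alone was in the tables, at 5.93 to 11.3 in siSirt6 and 0.974 to 1.95 in Control, below the filter. Of 15 endothelial markers 11 were in the tables, all higher, beside 50.5% of all genes tested. Their sums were 4901 to 5020 in siSirt6 and 3178 to 3373 in Control. The largest part was Flt1, with means of 2557 in siSirt6 and 1998 in Control. Each of the 11 was also called higher without that trend, beside 39.1% of all genes. Cldn5, at 9.76, 18.5 and 8.69 in Control, passed the filter only through its siSirt6 libraries. Both counts include it, but its direction follows from the filter and is not read as a result. Of 11 markers of adventitial fibroblasts 9 were in the tables, 4 higher and 5 lower, beside 50.5% and 49.3% of all genes tested. Their sums were 86239 to 87627 in siSirt6 and 100047 to 100726 in Control. Most of each sum was Gsn, with means of 57433 in siSirt6 and 72100 in Control, so the lower sums follow Gsn rather than the list. Without the trend Serpinf1 turned to lower (-0.061) and Ly6a lost its call (-0.024). The pan-leukocyte gene Ptprc and the remaining markers were not analysed here. The part of these cell types in the class I values was not tested.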

How the data were processed

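RNA was sequenced from 6 libraries of mouse aortic smooth muscle cells, 3 siSirt6 and 3 Control, made with a stranded mRNA kit per the labels' protocols. Tools listed in the submitters' processing notes are HISAT2, HTSeq, Cufflinks and Trimmomatic, with mm10 as the build and neither versions nor roles. Each deposited table gives a signal per gene for 7384 genes: reads divided by 1 factor per library, between 0.9609 and 1.0354. Values were whole reads, within 0.01 reads, for 100% of genes; the origin of these factors is unstated. Reads outside the listed genes are unknown. A library's step near 1 (siSirt6 replicate 1) did not pass an automatic check, so count tests used the other 5 libraries.

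The design assumed limma for normalised values. The 7179 genes that reached 10 in 3 or more libraries entered limma 3.58.1 in R 4.3.3 (trend, robust, 2-sided) on log2(value + 1), which understates changes of low genes, with Benjamini-Hochberg adjustment at 0.05 over all of them. The script was tested on simulated data. Ratios are of group means. GENCODE vM21 (GRCm38, the mm10 build) gave positions, merged exon lengths and GC for 7331 matched identifiers. Promoters came from RefSeq (GRCm38.p6), where 8 of the 9 listed genes matched.

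The members and lists were chosen with earlier results of these data known. Named genes are the listed members of the set, Sirt6, up to 6 members of each list by mean value, the 5 nearest profiles to H2-M1 and to H2-M9, and listed genes within 500 kb of them. Alternatives were pseudocounts of 0.5 and 5, no filter or a mean of at least 100, scaling to listed totals or by TMM, removal of a spline trend on length and GC, a replicate block, edgeR 4.0.16 and DESeq2 1.42.0 on recovered reads with the authors' factors, and each library left out. Levels per length used merged exons, with the transcript of the longest coding sequence as an alternative chosen after seeing the data.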

Additional observations from a re-analysis of the deposited data

How the results depend on the processing

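H2-M1, H2-M9, H2-K1, H2-D1, H2-T22, Tap2 and Tapbp kept their direction and call under every alternative run. Over all alternatives the log2 fold change lay between 2.40 and 2.81 for H2-M1 and between 1.87 and 2.16 for H2-M9. Without 1 library the set had 8 genes called higher and 1 lower in each case, the lists 40 to 41 higher and 22 to 23 lower, and all genes 3540 to 3577 higher and 3445 to 3474 lower. B2m lost its call with the length and GC trend removed (0.0091). Tap1 lost its call with listed totals (0.12) and with DESeq2 on 5 libraries (0.18). The cause was not tested. Since the genes were chosen on this contrast, calls kept or lost are a description and carry no test. Listed totals moved the median of all genes by -0.12, from 0.085 to -0.034, and called 2710 genes higher and 3567 lower in place of 3624 and 3542; on that scale B2m was at 0.22, Tap1 at 0.12 and Tapbp at 0.12. The edgeR test on the recovered reads of 5 libraries called 3547 genes higher and 3469 lower, and DESeq2 called 3188 higher and 3124 lower. With DESeq2 the set had 7 higher and 1 lower, and the lists 39 higher and 18 lower. The lists had 32 higher and 18 lower with the trend removed, and 32 higher and 23 lower with listed totals. Of 51 other named genes 16 changed a call or direction in some alternative. Reversed were Psmb5 (-0.095), Sel1l (0.0062), Polr1h (-0.17) and Ppp1r11 (-0.038) with the trend removed and Stat3 (-0.038) with listed totals. Same-numbered libraries did not vary together (correlations of deviations -0.019, 0.027 and -0.001). Where replicate spread is near counting error, as for the H2-M pair, such a check cannot exclude pairing by animal or culture. With the replicate block 8 members were higher and 1 lower, and 41 list genes higher and 23 lower. Of all genes, 3629 were then higher and 3540 lower. The depth limits H2-M1 in Control, at 49 to 60 reads, and Vmn1r43. Per kilobase of a single transcript in place of merged exons, a choice made after seeing the data, the ratio of Tap1 to Tap2 was 1.25 in siSirt6 and 0.901 in Control, in place of 0.739 and 0.534.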
